A study of Rattus norvegicus with 69 samples.

Results

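The 9 myelin and oligodendrocyte genes (Mbp, Mag, Mog, Mobp, Cnp, Gjb1, Pllp, Pmp22 and Klk6) were followed in hippocampal CA1 tissue of rats that were sleep deprived (SD), exposed to the same chamber but free to sleep as a stress control (NES) or left in the home cage (HC). Every probe set that the array annotation gave to 1 of these symbols was taken, which yielded 16 of the 8740 probe sets other than controls and 9 of the 4736 genes with a symbol of their own. Oligodendrocytes wrap axons in myelin, a stack of membrane held together on its cytoplasmic side by basic proteins and on its outer and axonal faces by adhesion molecules. CA1 contains myelin mainly in the alveus and along axons that cross its layers, and its RNA therefore carries abundant transcripts of these cells beside those of neurons. In sleep research the same genes are of interest because sleep and wake alter gene expression in oligodendrocytes.

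Each of 69 young adult male Fisher 344 rats gave 1 Affymetrix rat genome array. The 24SD rats (8 in cohort 1 and 8 in cohort 2) and the 72SD rats (8 in cohort 1 and 12 in cohort 2) were kept for 24 or 72 hours with a cage mate on platforms above water. The 24NES (10) and 72NES (6) rats, all of cohort 1, spent the same times in that chamber with a grid over the platforms on which they could sleep. The HC rats numbered 5 in cohort 1 and 12 in cohort 2. Before the experiment, HC and SD rats of cohort 1 learned an active avoidance task, which the study's methods state neither for NES rats nor for cohort 2, so that NES and this training cannot be told apart. NES and SD animals of cohort 1 are set against the same 5 HC arrays. The labels do not identify cage mates, so each animal was counted as 1 sample.

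Values are MAS5 signals, a brightness per probe set, and differences are on the log2 scale. Correlations between arrays ran between 0.909 and 0.978, with no identical pair. Of the 16 probe sets, 15 lay above the median of mean signals on the array. This rank cannot check the label of CA1, because no other tissue was measured. Only Pmp22 rc_AA924909_at lay under that median, and no member was at 0 on any array. In bulk tissue, fewer cells of a type and less RNA per cell cannot be told apart.

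The stretches before the start of transcription are shown for the 4 genes with the smallest p-values under SD (Klk6, Pllp, Gjb1 and Pmp22) and for Mobp, whose stretch was unlike the rest. Sequences are from RefSeq on rat build GRCr8, read 5′ to 3′ on the + strand, which is the strand of all 5 genes, and they end at the base before the annotated gene. Capitals mark ACAAAG or ACAATG on either strand, letters at the core of the sites that SOX factors bind. Sox10, a SOX factor, is required for oligodendrocytes to form myelin.
Klk6 (chr1:103415266-103415410): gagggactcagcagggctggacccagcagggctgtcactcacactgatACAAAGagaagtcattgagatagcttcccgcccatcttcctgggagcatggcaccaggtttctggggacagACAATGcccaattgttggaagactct
Pllp (chr19:10320830-10321079): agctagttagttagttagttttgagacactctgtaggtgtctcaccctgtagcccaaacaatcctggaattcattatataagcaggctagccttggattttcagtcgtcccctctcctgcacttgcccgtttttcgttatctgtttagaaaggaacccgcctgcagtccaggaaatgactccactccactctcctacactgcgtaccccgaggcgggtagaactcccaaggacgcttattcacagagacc
Gjb1 (chrX:70541595-70541844): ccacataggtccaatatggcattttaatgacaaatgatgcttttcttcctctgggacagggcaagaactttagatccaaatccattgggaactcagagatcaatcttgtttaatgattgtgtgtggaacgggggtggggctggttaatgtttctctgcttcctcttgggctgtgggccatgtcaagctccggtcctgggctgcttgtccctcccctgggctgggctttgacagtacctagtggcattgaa
Pmp22 (chr10:48294682-48294931): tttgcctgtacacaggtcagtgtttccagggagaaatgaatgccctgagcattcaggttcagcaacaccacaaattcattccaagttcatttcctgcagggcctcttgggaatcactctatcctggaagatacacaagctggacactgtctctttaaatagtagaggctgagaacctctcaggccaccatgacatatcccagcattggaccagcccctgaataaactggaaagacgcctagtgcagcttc
Mobp (chr8:128746982-128747116): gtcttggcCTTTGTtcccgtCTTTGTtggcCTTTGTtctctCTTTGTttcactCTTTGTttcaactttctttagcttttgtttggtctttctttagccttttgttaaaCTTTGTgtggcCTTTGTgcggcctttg
Of all 33469 windows of 250 bases before a transcript start, 25.3% held at least 1 of these letter groups, 16.3% ACAAAG and 11.1% ACAATG. The table had windows for 8 of the 9 genes, not for Mog, and 5 of their 9 windows held a match. The Mobp window held 8 copies of ACAAAG, all read as CTTTGT on the strand shown, of which 7 are in the printed stretch. Only 2 windows in all (0.00598%), that of Mobp included, held that many. Mobp was shown because of this stretch, so the count is a description and not a test. Whether SOX factors bind there was not tested. The genes not shown here lie at chr1:95275728-95291133 (Mag), chr10:86011504-86018063 (Cnp), chr18:78130652-78241174 (Mbp) and chr20:1514110-1528716 (Mog) on the same build. Klk6 held 1 copy of each letter group, while the windows of Pllp, Gjb1 and Pmp22 held neither.

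Under SD, no member probe set passed the adjusted test against HC (limma, moderated F over 24SD and 72SD, Benjamini-Hochberg over 8740 probe sets, lowest adjusted p = 0.232), where 0.114% of all probe sets did. At unadjusted p under 0.05, 4 of the 16 were counted, or 25.0%, against 10.3% of all probe sets. Klk6, Pllp and Gjb1 had negative differences and Pmp22 S55427_s_at a positive one. The members were chosen with earlier results of these data known, and the study itself lists Gjb1, Klk6 and Pmp22 as changed by SD. The share of members at unadjusted p under 0.05 is therefore a description and not a test. In the ANOVA of the methods, on values standardized within cohort, Klk6 and Pllp passed after removal of values more than 2 SD from the mean of their group (adjusted p = 0.0284 and 0.00393), as 172 probe sets did in all, and without that removal no member and 14 probe sets did. Over the 16, the median difference was 0.01 at 24SD and -0.03 at 72SD, beside -0.03 and -0.01 over all probe sets.

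Klk6 encodes a secreted kallikrein-type serine protease that is abundant in oligodendrocytes and can cleave myelin proteins. In cohort 1 its signal ran between 1407.2 and 1702.6 (median 1443) at 24SD and between 1287.7 and 1743.1 (median 1495) at 72SD, against 1742.5, 1613.8, 1689.4, 1725.6 and 1582.7 in the 5 HC rats. In cohort 2 the lowest, median and highest signals were 1008.2, 1243 and 1638.1 at 24SD and 799.3, 1332 and 1779.1 at 72SD, against 1192.0, 1492 and 1795.2 in HC. In cohort 1, 6 of 8 24SD rats and 6 of 8 72SD rats lay under the lowest of the 5 HC rats. In cohort 2, 3 of 8 and 3 of 12 lay under the lowest HC rat, and the groups overlapped widely. The SD of the HC rats was 0.06 on the log2 scale in cohort 1 and 0.18 in cohort 2. How many of all probe sets gave such counts was not examined. The fitted difference was -0.25 ± 0.07 (SE) at 24SD, or 15.6% less signal, with an adjusted p of 0.104 in limma, and -0.19 ± 0.07 at 72SD, or 12.5% less (adjusted p = 0.497). Of the 36 SD animals, 29 lay below the HC mean of their own cohort.

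Pllp encodes plasmolipin, a membrane-spanning protein of myelin. Its signal in cohort 1 ran between 1719.4 and 1979.0 (median 1889) at 24SD and between 1564.6 and 2238.8 (median 1807) at 72SD, against 2227.9, 2175.9, 2018.4, 2032.2 and 1860.9 in HC. In cohort 2 it ran between 1311.2 and 2047.3 (median 1532) at 24SD and between 1288.4 and 2341.7 (median 1543) at 72SD, against 1234.4 to 2535.8 (median 1988) in HC. The SD medians lay under the HC median in both cohorts, although the lowest value of cohort 2 was that of an HC rat. Differences were -0.23 ± 0.08 at 24SD and -0.19 ± 0.07 at 72SD (SE, limma, adjusted p = 0.155 and 0.551). All 8 24SD rats and 7 of 8 72SD rats of cohort 1 lay below the HC mean, and 31 of 36 did so over both cohorts.

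Gjb1 encodes connexin 32, which forms gap junctions in myelin and between oligodendrocytes and other glia. At 24SD it read 846.8 to 1130.9 (median 974.7) in cohort 1 and 702.6 to 1003.3 (median 792.3) in cohort 2, against 1520.3, 1317.3, 996.3, 1253.9 and 955.9 in HC of cohort 1 and 666.4 to 1227.6 (median 931.2) in HC of cohort 2. At 72SD it read 943.6 to 1200.2 (median 1067) in cohort 1 and 577.7 to 1118.9 (median 859.9) in cohort 2. The 24SD median was the lowest of the 3 in each cohort, although the groups overlapped, and 29 of 36 SD rats lay below their HC mean. The difference was -0.24 ± 0.08 at 24SD, or 15.2% less, and -0.13 ± 0.07 at 72SD (SE), with an adjusted p of 0.137 in limma at 24SD and a 95% interval of -0.28 to 0.01 at 72SD.

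Pmp22, a tetraspan protein of compact myelin best known from Schwann cells in peripheral nerve, had 2 probe sets. On S55427_s_at, SD signals in cohort 1 were 2333.4 to 3409.0 (median 2763) at 24SD and 1993.4 to 3395.0 (median 2612) at 72SD, against 2663.6, 2335.5, 1977.6, 2799.0 and 2571.3 in HC. In cohort 2 they were 4365.1 to 5002.8 (median 4733) at 24SD and 3213.8 to 4821.9 (median 4334) at 72SD, against 2903.1 to 4747.0 (median 3993) in HC. All 8 24SD rats of cohort 2 lay above the HC mean, and 29 of 36 SD rats did so over both cohorts. Differences were 0.21 ± 0.06 at 24SD, or 15.4% more, and 0.10 ± 0.06 at 72SD (SE, limma, adjusted p = 0.124 and 0.723). The dimmer rc_AA924909_at gave -0.19 ± 0.11 and -0.05 ± 0.10, the opposite sign at both times, so the direction for Pmp22 rests on 1 probe set.

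**Figure D1:**
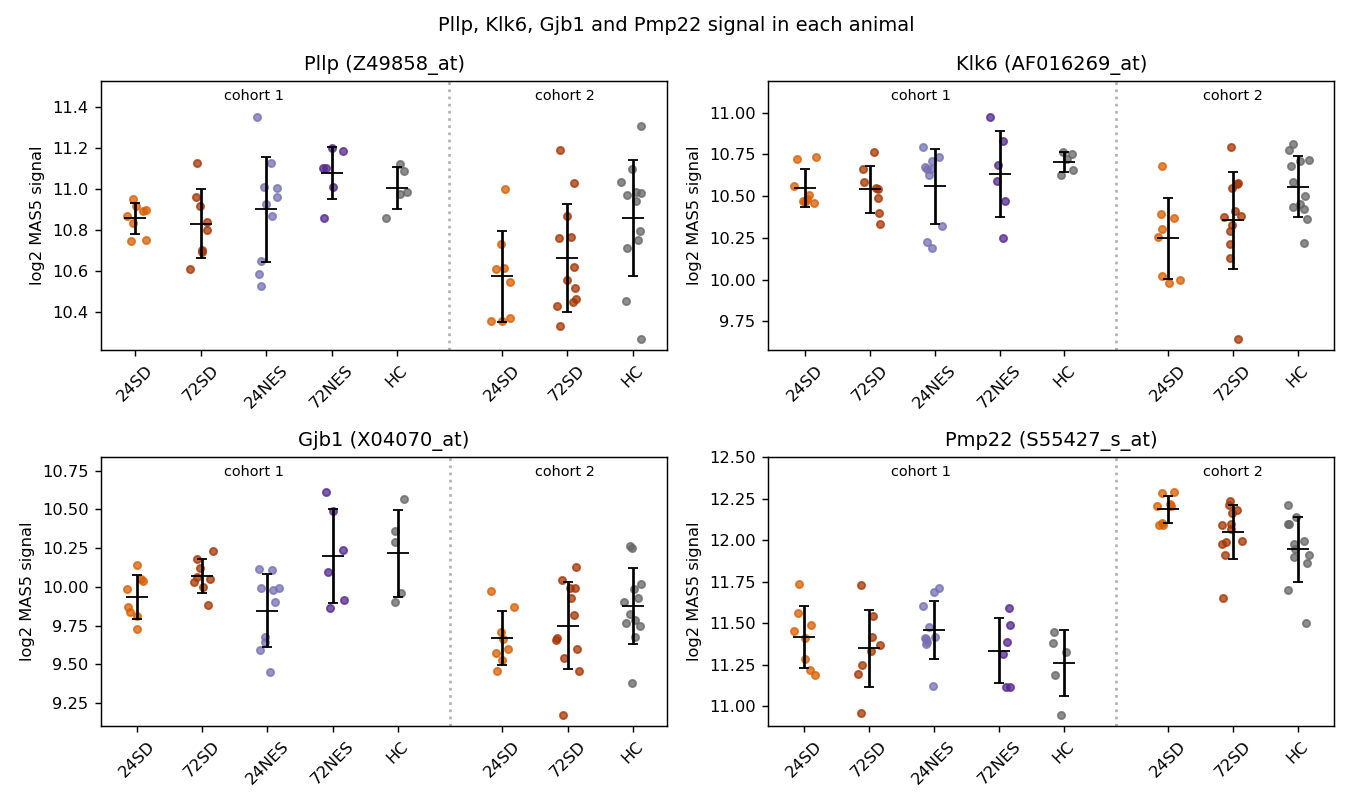
Log2 MAS5 signal (vertical axis) of Pllp, Klk6, Gjb1 and Pmp22 S55427_s_at in each animal, by group and cohort (horizontal axis), with the mean and SD of each group in black. SD and HC animals overlap in every panel, and the Pmp22 signals of cohort 2 lie mostly above those of cohort 1.

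Cnp is the gene of the enzyme CNPase of non-compacted myelin. In cohort 1 its signal ran between 4055.7 and 5503.4 (median 4821) at 24SD and between 4464.9 and 5486.4 (median 4707) at 72SD, against 5123.6, 5593.6, 5892.0, 4820.0 and 5268.7 in HC. In cohort 2 the medians were 5228 at 24SD and 5182 at 72SD, against 6060 in HC, within ranges that overlapped. The differences were -0.15 ± 0.08 at 24SD and -0.15 ± 0.07 at 72SD (SE), with 95% intervals of -0.31 to 0.01 and -0.30 to 0.00. Its moderated F had an unadjusted p of 0.0959 in limma, and 27 of 36 SD animals lay below their HC mean. Such counts for Klk6, Pllp, Gjb1 and Pmp22 S55427_s_at restate the values that singled them out and are no added support. For the remaining members, the SD animals below their HC mean numbered 14 for Mbp and 17 to 21 over the Mag probe sets. They numbered 15 and 16 for Mog, 12 to 16 for Mobp and 21 for Pmp22 rc_AA924909_at.

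The structural and adhesion genes had no call at either duration. Mbp encodes myelin basic protein, which compacts central myelin, Mobp a second basic protein of the same site, Mag an adhesion molecule facing the axon, and Mog a glycoprotein of the outermost surface. Over their 10 probe sets the differences ran between -0.09 and 0.09 at 24SD and between -0.13 and 0.09 at 72SD, and none had an unadjusted p under 0.05. The lowest and highest ends of their 95% intervals were -0.29 and 0.25 at 24SD and -0.31 and 0.24 at 72SD. These ends belong to different probe sets, and each interval included 0. Only differences within a probe set's own interval were not excluded, as between -0.08 and 0.17 for Mobp D28111_g_at at 24SD. Mbp itself read 31621.5 to 59528.6 (median 37445) at 24SD and 26622.9 to 43527.2 (median 36001) at 72SD in cohort 1, against 35789.9, 42526.9, 26187.7, 37808.6 and 41076.5 in HC. In cohort 2 it read 34175.2 to 43254.1 (median 39804) at 24SD and 34363.2 to 46276.1 (median 40373) at 72SD, against 26422.1 to 45242.3 (median 41166) in HC. The groups overlapped almost entirely. Mag X06554cds_s_at read 4431.8 to 6118.3 (median 4941) at 24SD and 3275.2 to 7326.1 (median 5298) at 72SD in cohort 1, against 5284.6, 5367.1, 2845.7, 4901.7 and 5513.4 in HC. In cohort 2 it read 3155.6 to 5318.9 (median 3895) at 24SD and 3059.3 to 5204.0 (median 3967) at 72SD, against 2638.1 to 4914.5 (median 4208) in HC. A single HC rat, subject 3, stood low in cohort 1, and without it the mean difference over both durations was -0.02, against 0.04 with it. The array of subject 3 had a GAPDH 3′:5′ ratio of 1.18 and a median signal of 430.6. Its actin 3′:5′ ratio of 0.90 was the lowest of all 69 arrays. The part of array quality in its low values was not tested. Mog M99485_at read 2548.7 to 3546.0 (median 3161) at 24SD and 2003.1 to 3683.8 (median 3114) at 72SD in cohort 1, against 2849.5, 3159.4, 3130.5, 2462.0 and 2910.0 in HC. In cohort 2 its medians were 3384 at 24SD and 3094 at 72SD, against 3392 in HC. Neither gene set the SD animals apart from HC. Mobp D28111_g_at, its brightest probe set, had medians of 20707 at 24SD and 21931 at 72SD in cohort 1, against 19613 in HC, and of 25072 and 24034 in cohort 2, against 23325 in HC. Whether these 4 genes differ in response from Klk6, Pllp and Gjb1 was not tested.

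**Figure D2:**
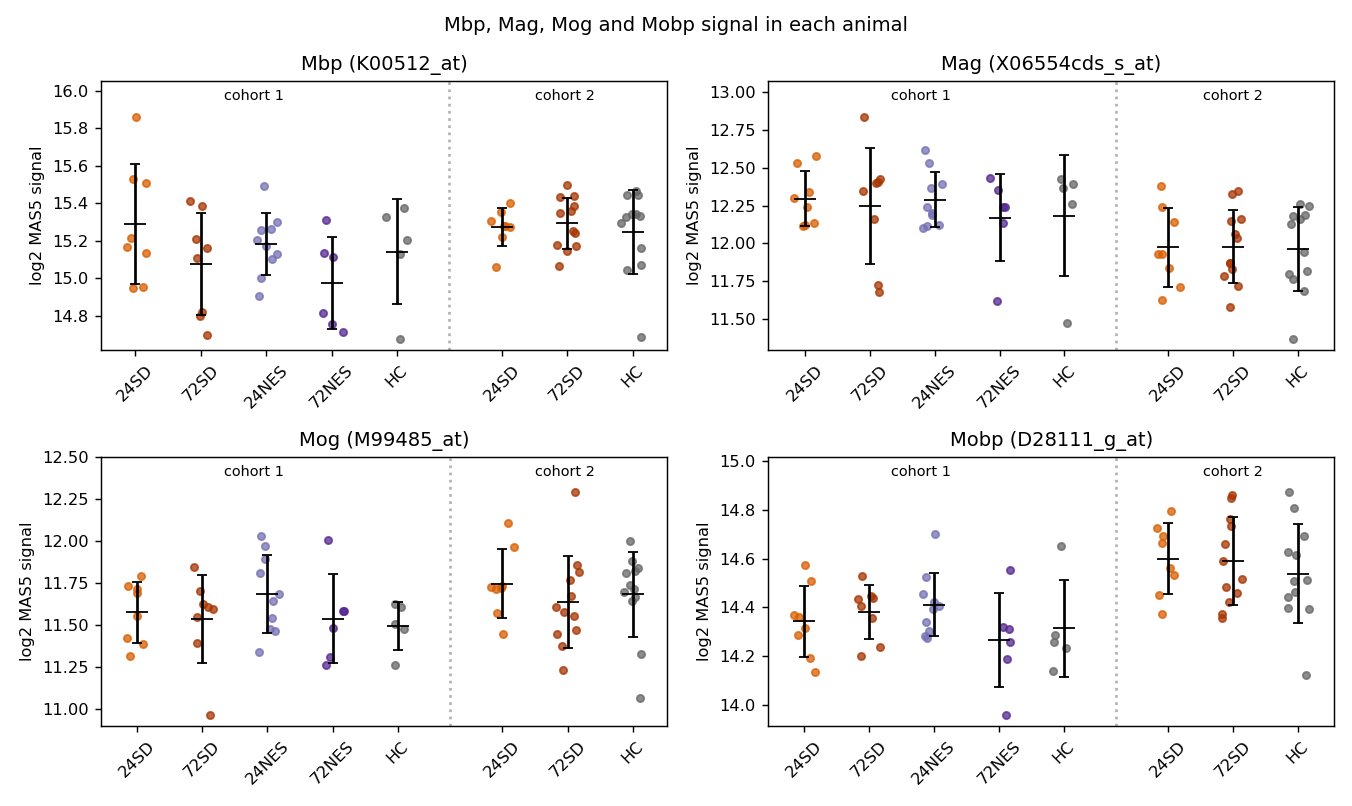
Log2 MAS5 signal (vertical axis) of Mbp, Mag X06554cds_s_at, Mog M99485_at and Mobp D28111_g_at in each animal, by group and cohort (horizontal axis), with the mean and SD in black. SD, NES and HC animals overlap in all 4 panels, and 1 HC rat of cohort 1 lies low for Mag at a signal of 2845.7.

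Between the durations of SD, 72SD minus 24SD ran between -0.11 and 0.14 over the 16 probe sets, with none at unadjusted p under 0.05 where 4.11% of all probe sets were. The values of Klk6, Pllp, Gjb1 and Pmp22 S55427_s_at within each cohort are given as a description, since both cohorts entered the fit that singled them out. For the mean of both durations, Klk6 was -0.25 ± 0.09 in cohort 2 and -0.16 ± 0.07 in cohort 1. Pllp was -0.24 ± 0.10 in cohort 2 and -0.16 ± 0.07 in cohort 1, and Gjb1 -0.17 ± 0.09 in cohort 2 and -0.22 ± 0.09 in cohort 1. Pmp22 S55427_s_at was 0.17 ± 0.06 in cohort 2 and 0.12 ± 0.11 in cohort 1 (SE). Other members had like signs too, among them Cnp with -0.15 in cohort 2 and -0.14 in cohort 1 and Mbp with 0.04 in each. The term for a response that differs between cohorts had no member at unadjusted p under 0.05, against 6.76% of all probe sets (lowest adjusted p of a member 0.936, limma F).

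In NES animals, no member passed the adjusted test against the 5 HC arrays of cohort 1 (lowest adjusted p = 0.475, limma F), and no probe set of the whole array did (0% of 8740, with 8.63% at unadjusted p under 0.05). Gjb1 was the 1 member of 16 (6.25%) at unadjusted p under 0.05. It read 699.7 to 1107.3 (median 983.6) at 24NES and 930.9 to 1563.2 (median 1151) at 72NES, against the HC values given above. All 10 24NES rats lay below the HC mean of 10.22 on the log2 scale, and 3 of 6 72NES rats did. The difference was -0.37 ± 0.15 at 24NES and -0.02 ± 0.16 at 72NES (SE, limma, adjusted p = 0.370 and 0.998), set side by side with -0.28 ± 0.11 at 24SD and -0.15 ± 0.11 at 72SD in the fit of cohort 1 alone, which shares those HC arrays. Klk6 gave -0.14 ± 0.12 and -0.07 ± 0.14, Pllp -0.11 ± 0.12 and 0.07 ± 0.13, and Pmp22 S55427_s_at 0.20 ± 0.11 and 0.08 ± 0.12 at 24NES and 72NES. For Mbp, Mag, Mog and Mobp the 95% intervals reached -0.55 and 0.49 at 24NES and -0.89 and 0.46 at 72NES, wider than under SD. Between 72NES and 24NES, Gjb1 differed by 0.35 ± 0.14 and Mobp D28111_at by -0.28 ± 0.12 (both at unadjusted p under 0.05, adjusted p = 0.667 in limma), as 7.46% of all probe sets did at that unadjusted threshold.

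**Figure D3:**
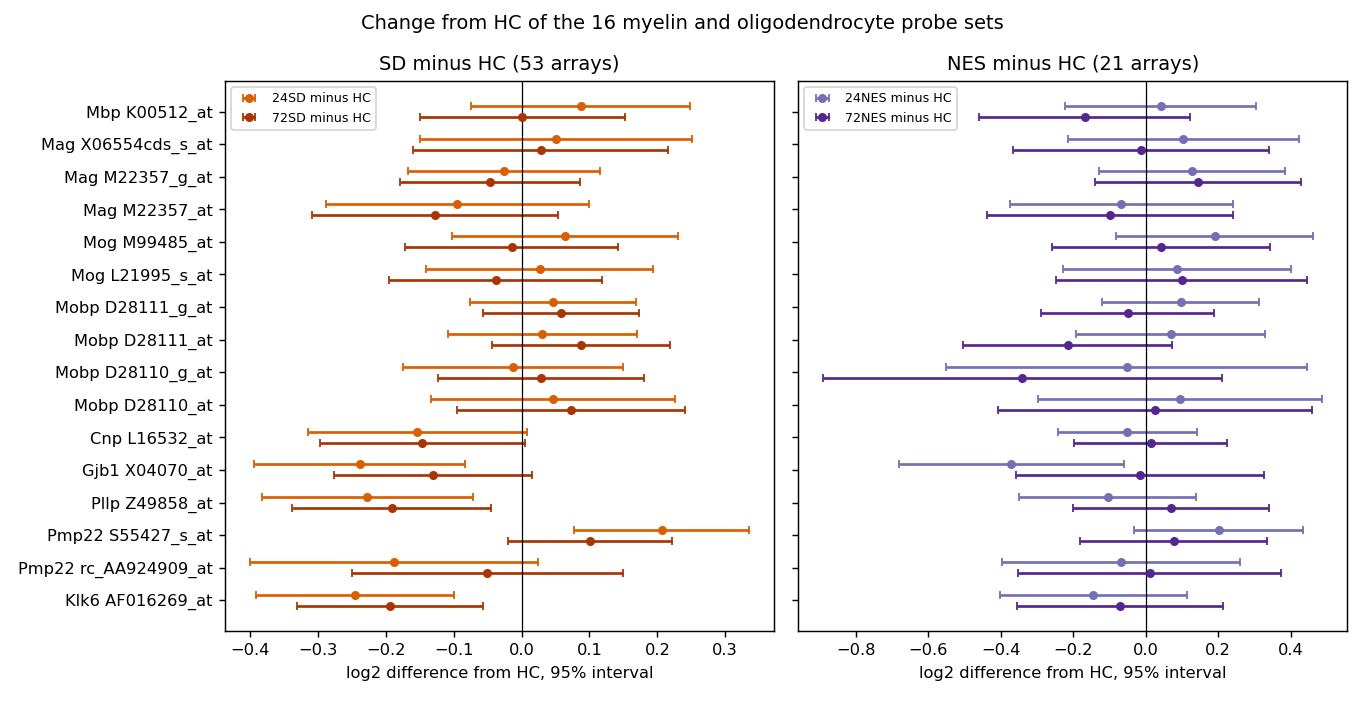
Log2 difference from HC (horizontal axis) of each of the 16 probe sets (vertical axis) at both durations of SD (left, 53 arrays) and NES (right, 21 arrays), with 95% intervals as bars. Under SD the intervals of Klk6 and Pllp lie below 0 at both durations, and under NES only that of Gjb1 at 24NES does.

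SD was also set against NES at the same duration in cohort 1. No member passed the adjusted test (limma F, lowest adjusted p = 0.741), beside 0.0114% of all probe sets, and 2 of 16 (12.5%) had an unadjusted p under 0.05, beside 6.67%. Both were Mobp probe sets, with their differences at 72 hours. D28110_g_at read 6376.3 to 8889.9 (median 7187) at 72SD and 1894.0 to 7520.3 (median 5980) at 72NES, a difference of 0.52 ± 0.19, and D28111_at read 9936.2 to 12660.3 (median 11428) at 72SD and 7047.0 to 13037.7 (median 8442) at 72NES, a difference of 0.31 ± 0.11 (SE). The 1894.0 was subject 71, whose array had the highest GAPDH 3′:5′ ratio (1.26, the next 1.18), the highest actin 3′:5′ ratio (1.76) and the lowest median signal (400.5) of all 69. Without that animal neither had an unadjusted p under 0.05, and the difference averaged over both durations was 0.15 for D28110_g_at, against 0.30 with it, and 0.11 for D28111_at, against 0.12 with it. The part of array quality in this result was not tested further. Pllp differed by -0.25 ± 0.10 at 72 hours (adjusted p = 0.726 in limma).

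Many more probe sets were called between the cohorts than between treatments, although for Klk6, Pllp and Cnp the cohort difference was of about the size of the SD difference. With treatment in the model, 9 of 16 member probe sets (56.2%) passed the adjusted test for cohort 2 against cohort 1 over the HC, 24SD and 72SD arrays, close to the 50.4% of all probe sets. Of these, 3 were higher and 6 lower, beside 22% and 28.4% of all probe sets. Pmp22 S55427_s_at was higher in cohort 2 by 0.72 ± 0.05 (SE, or 64.4% more, adjusted p = 2.28e-16 in limma). In the 12 HC rats of cohort 2 it averaged 11.95 ± 0.20 on the log2 scale (SD). In the 5 HC rats of cohort 1 it averaged 11.26 ± 0.20. Every HC value of cohort 2 lay above the highest of cohort 1, but how many of all probe sets separate this way was not counted. This probe set was the 1 member called on HC arrays alone (0.69 ± 0.11, adjusted p = 0.000817 in limma), where 17% of all probe sets were. The other Pmp22 probe set, rc_AA924909_at, differed by 0.03 ± 0.09. Mobp D28111_at and D28111_g_at were higher in cohort 2 by 0.31 ± 0.06 and 0.23 ± 0.05, while the D28110 pair of the same gene gave 0.00 ± 0.06 and 0.05 ± 0.07. In HC rats, D28111_at read 10139.0 to 17609.2 (median 12967) in cohort 2 and 9296.6, 10781.1, 12991.1, 9539.6 and 10125.2 in cohort 1, ranges that overlapped. The genes Gjb1, Mag, Klk6 and Pllp went the other way. Lower in cohort 2 were Gjb1 (-0.31 ± 0.06), all 3 Mag probe sets (-0.15 to -0.27), Klk6 (-0.21 ± 0.06) and Pllp (-0.20 ± 0.06). Beside these, 8 of 12 neuronal marker genes were lower and 2 higher in cohort 2 by the same test. Of 12 astrocyte marker genes, 7 were higher and 0 lower. Higher and lower were 4 and 1 of 9 microglial, 3 and 1 of 7 oligodendrocyte precursor, and 1 and 3 of 6 choroid plexus genes. They were 2 and 2 of 10 endothelial and mural, 2 and 2 of 6 dentate granule cell, and 1 and 0 of 3 blood genes. The study's methods describe a lower background signal in cohort 2, and cohort, training and array background cannot be told apart.

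**Figure D4:**
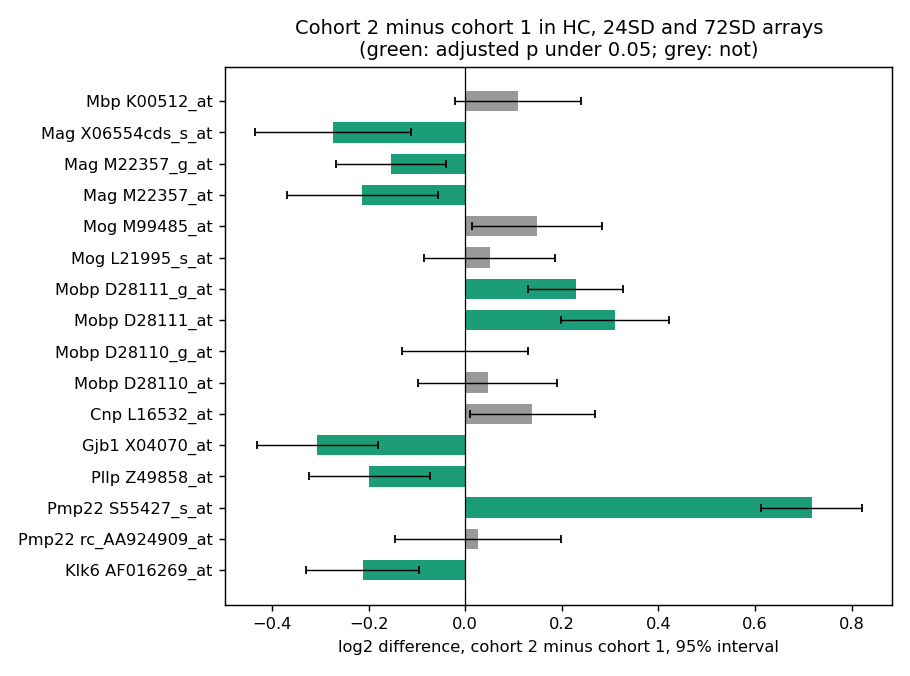
Log2 difference of cohort 2 minus cohort 1 (horizontal axis) for each of the 16 probe sets (vertical axis), estimated with treatment in the model over 53 arrays, with 95% intervals; green bars passed the adjusted test. Pmp22 S55427_s_at stands out at 0.72, while the other Pmp22 probe set lies near 0.

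The members were next compared animal by animal, after the mean of each group and cohort had been subtracted. Animals high in Mbp were also high in Mag (r = 0.479, rho = 0.527, permutation p = 0.0002 and 0.00004, adjusted over 8 pairs 0.0016 and 0.00032, n = 69 arrays), with 0.469 after the 2 arrays farthest from the Mbp median were left out, 0.445 in cohort 2 and 0.506 in cohort 1. Mbp and Mobp gave r = 0.358 and rho = 0.390 (permutation p = 0.00415 and 0.0016, adjusted 0.0166 and 0.0064), with 0.298 without the 2 farthest arrays, 0.659 in cohort 2 and 0.168 in cohort 1. The other 6 genes had r with Mbp of -0.04 to 0.20, none past the threshold (lowest adjusted p = 0.406, permutation test). Each gene was taken by its brightest probe set, and the remaining probe sets were not tested. With Mbp, Mog L21995_s_at gave r = 0.40, Mag M22357_g_at 0.45 and Mag M22357_at 0.23. Mobp D28111_at gave 0.30, D28110_g_at 0.255 and D28110_at 0.02. The contrast of Mobp with Mog thus depends on the probe set taken.

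Other pairs are given as description. Among the 36 pairs of genes, each by its brightest probe set, 31 were positive, the median r was 0.19, and 6 exceeded 0.4, beside a median of -0.01 and 3.83% over 0.4 for all pairs among 3680 probe sets above the median signal. Among these brightest probe sets, a chain of Mog, Cnp, Pllp and Klk6 held higher values. They were 0.65 for Mog and Cnp, 0.66 for Cnp and Pllp, 0.56 for Cnp and Klk6 and 0.49 for Pllp and Klk6. Some of these values lay far apart in the cohorts, a difference that was not tested. Cnp and Pllp gave 0.80 in cohort 2 and 0.27 in cohort 1, and Mog and Pllp 0.80 in cohort 2 and -0.29 in cohort 1. The chain depends on the probe set taken. Mog L21995_s_at gave 0.09 with Cnp, 0.14 with Pllp and 0.05 with Klk6. Mag M22357_at, which is not the brightest of its gene, gave 0.55, 0.62 and 0.47 with the same genes. Pmp22 and Gjb1 followed the other members least, with r of 0.13 and 0.11 to the mean of the rest. Probe sets of 1 gene share its RNA and still ranged between 0.06 for the Mog pair and 0.70 for the D28111 pair of Mobp.

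**Figure D5:**
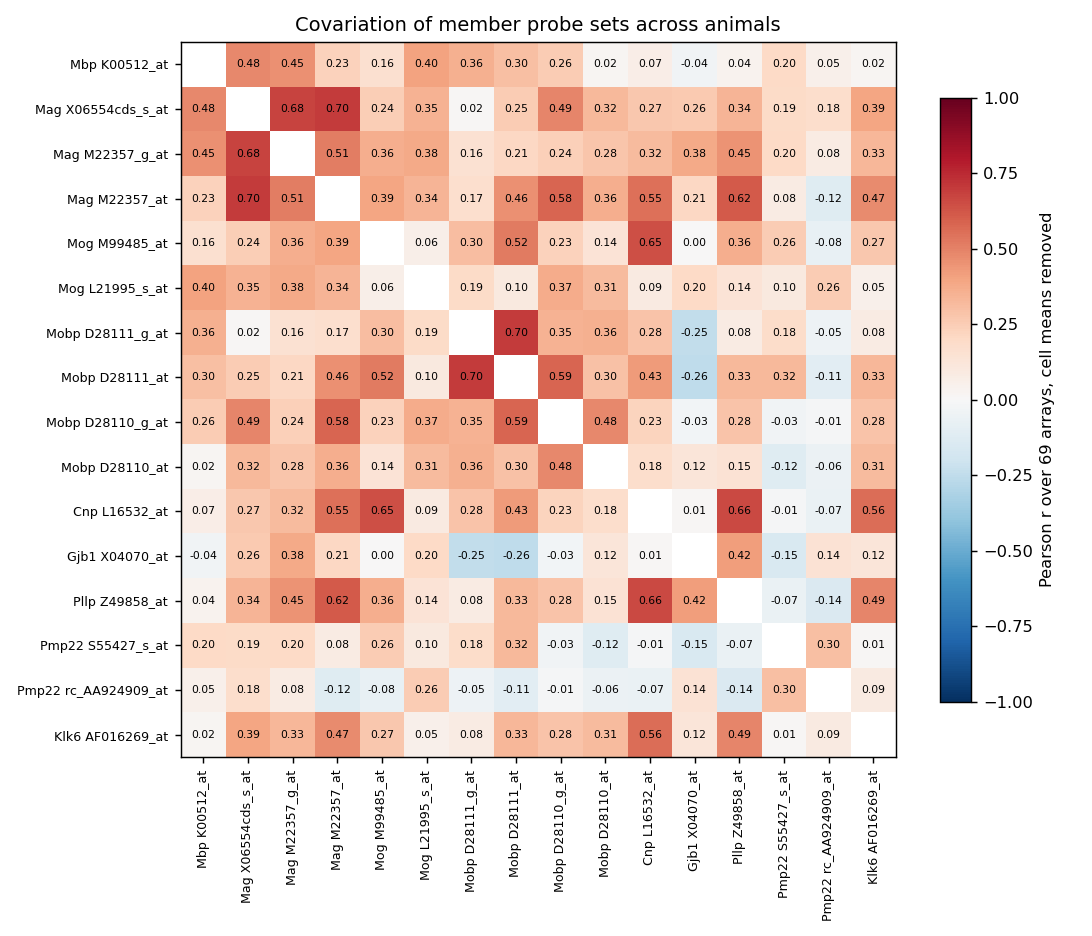
Pearson r between member probe sets over 69 arrays, with the mean of each group and cohort removed; rows and columns are probe sets and colour runs between -1 (blue) and 1 (red). The 3 Mag probe sets (0.51 to 0.70) and the D28111 pair of Mobp (0.70) stand out. So do the pairs of Cnp with Mog M99485_at (0.65) and Pllp (0.66) and of Mag M22357_at with Pllp (0.62). Gjb1 reaches 0.42 with Pllp.

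The probe sets most like the mean of the 9 genes, out of 3665 ranked by Pearson r over the 69 arrays, were Apod (0.69), Ptgds (0.63), Mal (0.63), Lpar1 (0.61), Cd82 (0.60), Chn2 (0.59), Txnip (0.58), RT1-CE12 (0.55), Car2 (0.55) and Cd9 (0.54). Apod, Mal, Lpar1, Car2 and Cd9 belong to the list of other myelin and oligodendrocyte genes described next. Ptgds encodes the enzyme that makes prostaglandin D2.

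Of 63 other myelin and oligodendrocyte genes listed, 22 were measured by a probe set of their own symbol. None passed the adjusted test under SD or NES. Their median difference was 0.00 at 24SD and -0.03 at 72SD, and 7 of the 22 had a positive and 15 a negative mean over SD. An unadjusted p under 0.05 under SD was reached by 2 of the 22, near the share of all probe sets (10.3%). They were Cryab, a small heat shock protein of oligodendrocytes and astrocytes, with 0.58 ± 0.14 at 24SD and 0.40 ± 0.13 at 72SD (adjusted p of the limma F 0.154), and Il33, a nuclear cytokine of both cell types, with 0.29 ± 0.07 and 0.17 ± 0.07 (adjusted p 0.174). Cryab read 0.40 ± 0.15 at 24NES and 0.12 ± 0.16 at 72NES. It was the 1 gene of the 22 at unadjusted p under 0.05 under NES, beside 8.63% of all probe sets. The brightest others, Qdpr, Bin1, Sirt2, Car2, Mal and Apod, had SD differences between -0.13 and 0.05. Sox10, named for the letters searched before the genes, had 0.06 ± 0.09 at 24SD and -0.10 ± 0.09 at 72SD. Between the cohorts, 9 of the 22 were higher and 6 lower in cohort 2, beside 22% and 28.4% of all probe sets. Of the markers of oligodendrocyte precursors, 7 were measured, and 1 had an unadjusted p under 0.05 under SD. It was Pdgfra, the growth factor receptor of these precursors, with 0.29 ± 0.09 at 24SD and 0.18 ± 0.09 at 72SD (adjusted p of the limma F 0.331). Of the 7 precursor markers, 3 had a positive and 4 a negative mean over SD. Their median was -0.02 at 24SD and 0.02 at 72SD. Among the markers of other cells, 1 of 12 neuronal, 1 of 12 astrocyte, 2 of 10 endothelial and mural, 2 of 6 dentate granule cell and none of 9 microglial, 6 choroid plexus and 3 blood genes had an unadjusted p under 0.05 under SD, beside 10.3% of all probe sets, and none passed the adjusted test. The neuronal median was -0.08 at 24SD and -0.06 at 72SD, and that of astrocytes -0.01 and -0.02. Their part in the values of the myelin genes was not tested.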

How the data were processed

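CA1 RNA of 69 rats was hybridised to 1 array per animal. The intensity values are MAS5 signals on a linear scale as the authors deposited them (version and build not given in the sources used here); the authors scaled each array as a whole, and no background or cohort correction was added. Signals were set to at least 1 and log2 transformed. Of 8740 probe sets other than 59 controls, 7006 had 1 gene symbol, 308 several and 1426 none.

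All probe sets were fitted with limma 3.58.1 in R 4.3.3 (lmFit, eBayes), and the Benjamini-Hochberg adjustment ran over all 8740, with a threshold of 0.05. SD was compared with HC over 53 arrays with cohort as a term, NES with HC over 21 arrays, and SD with NES over the 37 arrays of cohort 1. Correlations used 100000 permutations within group and cohort (Python 3.11.15, numpy 2.4.6, scipy 1.17.1). Fits were tested on simulated data. Alternatives changed the scaling, floor, filter, variance prior, cohort handling and arrays, and included the 1-way ANOVA of the methods on values standardized within cohort. All 16 member probe sets are reported. From the list of other myelin genes, those at unadjusted p under 0.05 and the 6 brightest others are named, and the 10 probe sets most like the members. Sox10 and Pdgfra were named after their values were seen. Members and lists were chosen with earlier results of these data known. Detection calls were not used here. The number of arrays limits the precision.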

Additional observations from a re-analysis of the deposited data

Results flagged for a closer look

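Among 96 sets of 4 to 10 arrays (1 probe set in 1 group of 1 cohort), 5 held a value far from the others by Dixon's criterion, where chance gives about 1 in 20 such sets. Mag X06554cds_s_at was low in 1 HC rat of cohort 1, subject 3 (2845.7, the others 4901.7 to 5513.4), and in 72NES subject 71 (3140.5, the others 4501.8 to 5520.9). Mobp D28110_g_at was low in the same 72NES animal (1894.0, the others 4916.6 to 7520.3). Mobp D28111_at was high in 24NES subject 66 (14294.4, the others 9969.7 to 11735.1), and Mobp D28110_at in 24NES subject 67 (1777.2, the others 1025.5 to 1355.3).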

How the results depend on the processing

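Leaving out 1 HC array of cohort 1, 24SD subject 30 or 72NES subject 71 left the counts under SD at 0 adjusted and 4 unadjusted (lowest and highest alike), and those under NES at 0 and 1. The unadjusted count of SD against NES was 0 without 72NES subject 71, and 1 with only the brightest probe set per gene above the median signal. That filter also gave 1 for 72NES against 24NES. The unadjusted count under SD was 1 when no cohort term was fitted, 1 in cohort 1 alone (Gjb1) and 2 in cohort 2 alone (Klk6 and Pmp22), where 72SD against 24SD also gave 1. The ANOVA of the methods called Klk6 and Pllp, 2 of 16, after removal of values more than 2 SD from the mean of their group (adjusted p = 0.0284 and 0.00393, 172 called in all), and 0 without that removal (14 in all). On HC arrays alone, cohort counts were 1 adjusted and 3 unadjusted, where 17% of all probe sets passed the adjusted test. The share of all probe sets at unadjusted p under 0.05 was not counted for the limma alternatives. Their unadjusted member counts are therefore a description.

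Of 605 values of single probe sets under an alternative, 563 kept direction and side of the threshold, and 28 had the opposite sign, none of them past it. Another 6 gained a call: Klk6 and Pllp under SD in the ANOVA above and, between cohorts, Mbp with quantile normalization (0.18), Cnp (0.16) and Mog M99485_at (0.17) with median centring and Mog M99485_at with the filter (0.15). The 8 that lost one were the cohort calls other than Pmp22 on HC arrays alone. Quantile normalization gave Mog L21995_s_at 0.0025 under SD, Mobp D28111_g_at -0.012 for SD against NES and Mobp D28110_g_at -0.011 for cohort. Median centring gave Mog L21995_s_at 0.023. The ANOVA with removal, in SD units, gave -0.012 for Mobp D28110_g_at, -0.090 for Mbp, -0.0017 for Mog M99485_at and -0.012 for Mag X06554cds_s_at. Cohort 1 alone gave Mog L21995_s_at 0.078 and Mag M22357_g_at 0.027, cohort 2 alone Mobp D28110_g_at -0.029, and HC arrays alone Pmp22 rc_AA924909_at -0.15. Single arrays left out turned SD against NES for Mag M22357_at (-0.025) and X06554cds_s_at (-0.013). They also turned SD values of Mobp D28110_g_at (range -0.0094 to 0.016), Mog L21995_s_at (-0.036 to 0.014) and Mag X06554cds_s_at (-0.017 to 0.055, the lowest without HC subject 3). NES values turned were Mobp D28110_at (-0.018 to 0.19), D28111_g_at (-0.021 to 0.11) and D28111_at (-0.12 to 0.0044), Pmp22 rc_AA924909_at (-0.13 to 0.11), Pllp (-0.054 to 0.011), Cnp (-0.055 to 0.018) and Mag X06554cds_s_at (-0.13 to 0.11, the lowest without HC subject 3). The cause was not tested. Correlations with Mbp that moved were those of Mog (0.277 with quantile normalization), Mobp (0.168 in cohort 1, 0.659 in cohort 2), Gjb1 (-0.157 in cohort 2), Pmp22 (0.376 in cohort 2, 0.0246 without the 2 farthest arrays) and Klk6 (-0.126 in cohort 2). No paired analysis was possible because no subject number recurs between groups.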
